A study of Drosophila melanogaster with 27 samples.

Results

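Whole larval ovaries of *D. melanogaster* were compared at the end and at the beginning of terminal filament formation. The comparison set the 3 libraries of the late stage, 120 h after egg laying (AEL), against the 3 libraries of the early stage, 72 h AEL, so that 6 of the 27 libraries of the series entered it, and it covered all 16257 genes of the deposited count table. Late ovaries came from animals labelled as white pupae and early ovaries from larvae of the last instar. Both groups were of the wild-type strain Oregon R and no transgene, driver or treatment is given for them. Each library was a biological replicate made from a pool of dissected ovaries, from which the larval fat body had been removed by hand. Poly(A)-selected RNA was sequenced as single-end reads. The other whole ovary libraries were 3 of the mid stage, 96 h AEL, and the rest of the series consisted of flow-sorted somatic cells, marked with GFP under *bab:GAL4*, and sorted germ cells, marked with GFP under *nos:GAL4*, at the same stages.

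Terminal filaments are stacks of flattened somatic cells, and each one founds an ovariole, the egg-producing unit of the adult ovary. While they form, somatic cells intercalate and stack, other somatic cells migrate between the stacks and lay down basement membrane, and the germ cells below them, until then primordial, begin to set up stem cells and to differentiate. The steroid hormone ecdysone, released in pulses that end each larval instar and start metamorphosis, acts through the nuclear receptor pair EcR and Usp, which switches on a cascade of transcription factors, and it is known to time these steps in the ovary.

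The libraries held between 11615879 expected counts, in late replicate 1, and 29492381, in early replicate 3. Levels are given as CPM, counts scaled to the TMM-adjusted library size. The early replicates were the less alike: the median SD over genes of log2(CPM + 1) was 0.17 at late and 0.29 at early. Early replicate 3 stood apart from the other early libraries, with a chi-square per degree of freedom of 329 and 249 against early replicates 1 and 2, which had 39.9 between them, while late pairs had between 37.6 and 54.7. It was the deepest library and had the fewest detected genes (11481, against between 11911 and 12545 in the other whole ovary libraries), and genes with a short total exonic length were low in it. With genes divided by exonic length into 4 classes of equal size, the median gene of the shortest class differed by -0.43 (log2) from the mean of early replicates 1 and 2, and that of the longest class by 0.36. Counts in the lists are therefore given with and without it where they differ. Length also moved with the stages themselves: in the shortest class 3.63% of genes were higher and 12.6% lower in late ovaries, and in the longest class 12.1% were higher and 11.4% lower. Across the 10035 genes, which are not independent replicates, the Spearman correlation of exonic length with the log2 fold change was 0.17 with early replicate 3 and 0.25 without it. Of the lists described, genes of the longest class made up 17 of the 19 hormone response factors, 14 of the 21 gonad transcription factors, 16 of the 21 BMP and Activin genes and 20 of the 24 adhesion genes, and the part of length in their counts was not tested.

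Defining genes of ovarian soma (*bab1*, *bab2* and *tj*) summed to between 1021 and 1294 CPM in late and between 635 and 994 CPM in early ovaries, and those of germ cells (*vas* and *nanos*) to between 198 and 222 CPM in late and between 318 and 429 CPM in early ovaries, so that both cell types were present as labelled. Transcripts listed as markers of other tissues were present as well. A list of 9 fat body genes, all with counts in every library, summed to between 5630 and 10259 CPM in late and between 18183 and 24680 CPM in early ovaries, against at most 9.76 CPM in any sorted somatic library. The 13 muscle genes summed to between 32.2 and 63.1 CPM in late and between 294 and 1226 CPM in early ovaries, 9 haemocyte genes to between 108 and 136 CPM in late and between 372 and 743 CPM in early ovaries, 9 larval cuticle genes to between 13.8 and 21.95 CPM in late and between 42.9 and 121 CPM in early ovaries, and 11 gut enzyme genes to between 4.93 and 6.08 CPM in late and between 9.91 and 75.8 CPM in early ovaries. In sorted somatic cells the muscle genes summed to between 187 and 315 CPM at late and between 142 and 190 CPM at early. These values were above every late whole ovary sum. The haemocyte genes summed there to between 69.3 and 74.9 CPM at late and between 39.5 and 55.7 CPM at early. Both lists thus hold genes that are not confined to other tissues. Neuronal markers overlapped between the stages. In whole ovaries the fat body, muscle, haemocyte, cuticle and gut sums were each lower in every late than in every early library. They did not all decline steadily: at mid the fat body sum was between 33176 and 79164 CPM, above every early library. The haemocyte sum lay between 471 and 1490 CPM at mid. The part of these tissues in the falls described further on was not tested.

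**Figure D1:**
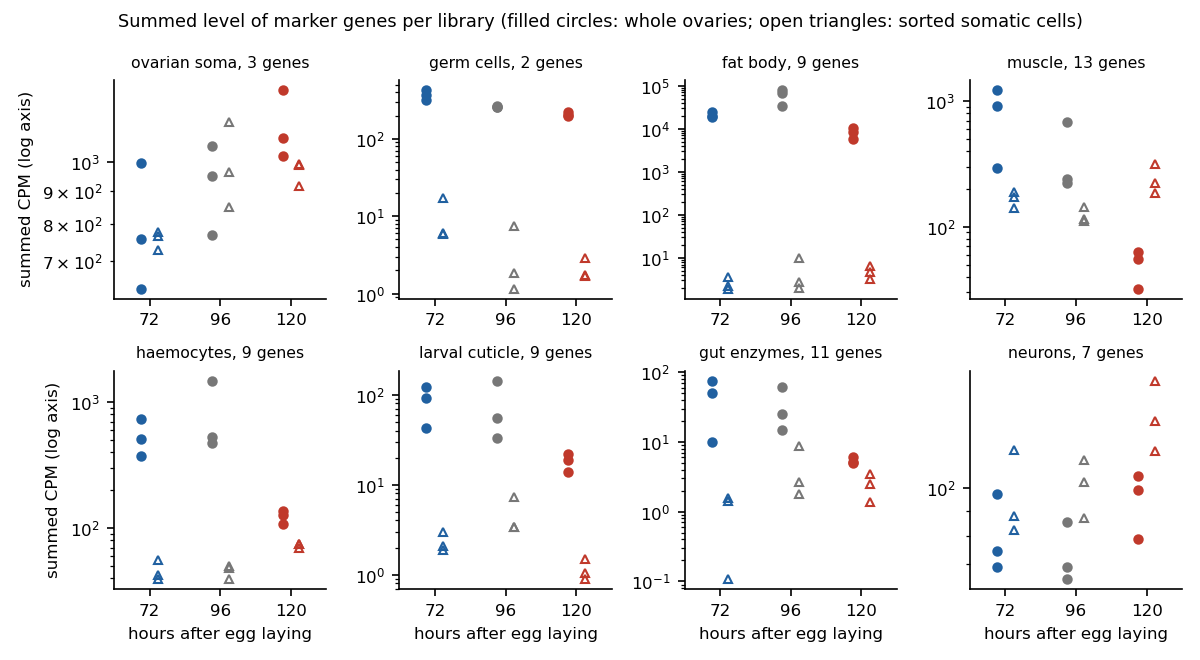
Summed CPM (log axis) of marker genes at 72, 96 and 120 h AEL in each library, with whole ovaries as filled circles and sorted somatic cells as open triangles. Fat body markers reached at most 10259 CPM in late and 24680 CPM in early whole ovaries and at most 9.76 CPM in sorted somatic cells. Muscle, haemocyte, larval cuticle and gut sums were lower in every late than in every early whole ovary library.

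At an adjusted p under 0.01 by edgeR's quasi-likelihood test, 2202 of the 10060 genes tested changed between late and early ovaries, which is 21.9%. Of these, 844 genes (8.39%) were higher and 1358 (13.5%) lower in late ovaries. The counts of called members in each list below are to be read against both shares. Without early replicate 3, 1416 of 10264 genes tested were higher and 1864 lower. List counts given without that library are to be read against these larger totals. Falls were larger than rises: 502 of the lower genes but 100 of the higher genes differed at least 16-fold. For every called gene the 3 late libraries lay on one side of the 3 early ones, as they did for 46.3% of all genes tested. The median log2 fold change over all tested genes was -0.05 and the median absolute log2 fold change 0.51. Fewer cells of a type and less RNA per cell cannot be told apart in such bulk samples, and this holds for every fall and rise reported here.

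DESeq2 called 3254 of 11230 genes (29.0%), among them 2200 of the 2202 edgeR calls, and limma voom called 1917, of which 1853 were shared. Leaving out 1 library changed the number of edgeR calls to between 1233, without late replicate 2, and 3280, without early replicate 3. It was 1460 without early replicate 2, 1344 without late replicate 1 and 1419 without late replicate 3. A total of 416 higher and 724 lower genes were called in each of the 9 fits that left out 1 whole ovary library.

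The mid libraries lay nearer to the early ones for most called genes. The mid mean of 1241 called genes lay between the means of the other stages and nearer to early, that of 499 lay between them and nearer to late, that of 413 lay beyond early and that of 49 beyond late.

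**Figure D2:**
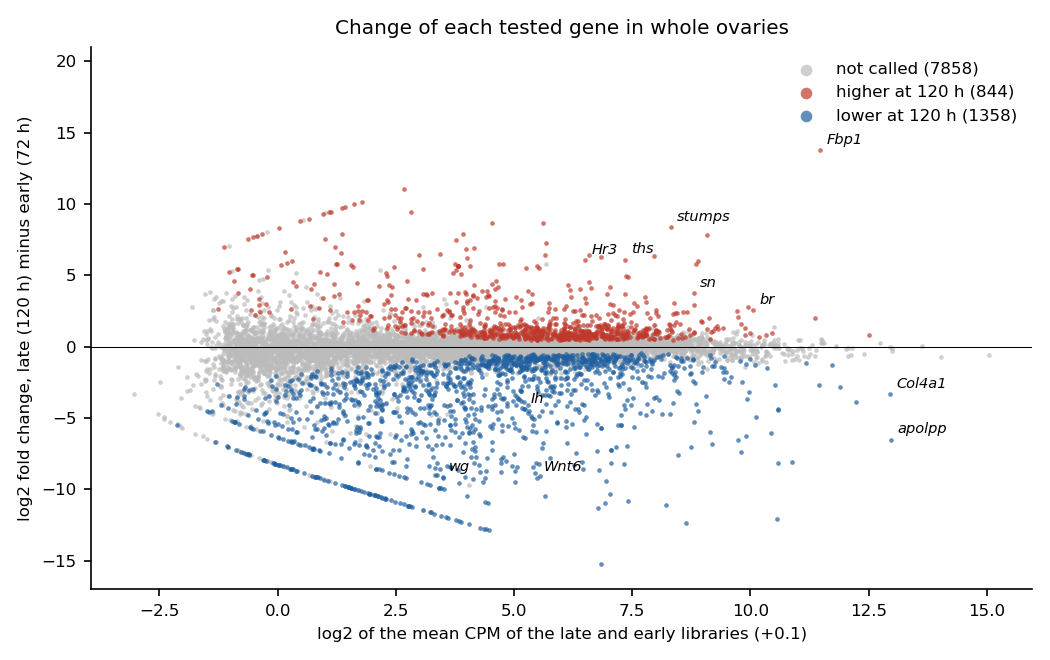
Log2 fold change of each tested gene, late minus early, against the log2 mean CPM of the late and early libraries with 0.1 added; 844 genes called higher at 120 h are red, 1358 called lower are blue, and genes not called are grey. The straight diagonal rows are genes at 0 in every library of one stage, whose fitted fold change depends on the prior count of the fit. *stumps*, *Hr3*, *ths* and *sn* lie among the rises and *Wnt6*, *wg*, *Ih*, *apolpp* and *Col4a1* among the falls.

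The genes that rose with the smallest p included a cytoskeletal gene, a mucin, an FGF signalling adaptor and hormone-induced nuclear receptors. The uncharacterized *CG6357*, which had the smallest p, had 28.6, 37.9 and 31.2 CPM in late ovaries, against 0.626, 0.528 and 0.743 CPM in early ovaries (5.66 ± 0.23, adjusted p = 1.4e-06). *sn* (X, 7964024 to 7986601), which encodes the actin-bundling protein fascin, had 917, 795 and 791 CPM in late ovaries, against 61.6, 60.96 and 63.8 CPM in early ovaries. Its log2 fold change was 3.75 ± 0.16 (approximate SE, adjusted p = 1.4e-06 by edgeR). Its mid libraries, at 131, 98.5 and 126 CPM, were nearer to the early ones. *stumps* (3R, 14577217 to 14608079), which encodes the adaptor that links FGF receptors to Ras signalling in mesoderm, had 633, 616 and 660.3 CPM in late ovaries, against 1.41, 1.92 and 2.42 CPM in early ovaries (log2 fold change 8.35 ± 0.402, adjusted p = 3.8e-06). It was nearly silent at the early stage, with 21.4, 8.73 and 17.9 CPM at mid. *Mur89F* (3R, 17152995 to 17202130), a mucin-related gene, had 510.1, 493 and 483 CPM in late ovaries, against 8.45, 4.65 and 5.17 CPM in early ovaries (6.35 ± 0.301, adjusted p = 3.7e-06). *Mmp2*, a membrane-anchored matrix metalloproteinase that cuts basement membrane, had 328, 325 and 305 CPM in late ovaries, against 10.6, 9.16 and 10.9 CPM in early ovaries (4.96 ± 0.25). The late libraries of each of these genes lay close together and far above the early ones.

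Of the others in this set, *NijA*, which encodes the surface protein Ninjurin A, had 41.8, 61.4 and 55.8 CPM in late ovaries, against 1.25, 1.06 and 0.582 CPM in early ovaries (5.81 ± 0.302). The Ryk-family Wnt receptor gene *drl* had 123, 128 and 109.9 CPM in late ovaries, against 19.2, 14.2 and 15.97 CPM in early ovaries (2.87 ± 0.15). Both separated the stages with no overlap, as did *CG9416*, at 348, 306 and 272 CPM in late and 59.3, 58.8 and 55.01 CPM in early ovaries (2.42 ± 0.13). *Eip78C* and *Hr3* complete this set and are described with the hormone response.

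The falls with the smallest p included a channel gene, 2 Wnt ligand genes and a matrix enzyme gene. *Wnt6* (2L, 7333714 to 7352542) had 0.237, 0.08805 and 0.153 CPM in late ovaries, against 87.4, 83.3 and 97.4 CPM in early ovaries (log2 fold change -9.19 ± 0.298, adjusted p = 7.2e-07). It was nearly lost by the late stage, after 29.5, 33.3 and 22.2 CPM at mid. *Wnt2*, a ligand known from the male gonad and from muscle attachment, had 11.2, 11.2 and 11.4 CPM in late ovaries, against 104, 94.1 and 100.1 CPM in early ovaries (-3.14 ± 0.13) and stayed at 84.1, 70.7 and 90.9 CPM at mid. *Ih*, which encodes a hyperpolarization-activated cation channel, had 3.16, 3.26 and 3.63 CPM in late ovaries, against 74.4, 67.5 and 71.6 CPM in early ovaries (-4.401 ± 0.14, adjusted p = 7.2e-07). The late libraries of *Ih* differed by little and none came near an early one.

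*AdamTS-B* (X, 5698557 to 5708633), a secreted metalloprotease gene, had 4.11, 4.67 and 5.01 CPM in late ovaries, against 63.3, 60.4 and 73.4 CPM in early ovaries (-3.83 ± 0.15). *SP1173* (3L, 6689327 to 6703521) had 1.26, 1.67 and 1.07 CPM in late ovaries, against 217.3, 187 and 236 CPM in early ovaries (-7.31 ± 0.26), and the esterase gene *alpha-Est9* had 16.7, 16.9 and 21.5 CPM in late ovaries, against 187, 186 and 198 CPM in early ovaries (-3.37 ± 0.14). Stages were far apart for all of these. *CG10019* had 0.395, 0.352 and 0.268 CPM in late ovaries, against 36.7, 31.99 and 34.7 CPM in early ovaries (-6.69 ± 0.24), *CG34370* had 4.66, 6.38 and 6.23 CPM in late and 168, 151 and 214 CPM in early ovaries (-4.94 ± 0.204), the intraflagellar transport gene *Oseg5* had 14.8, 16.8 and 13.9 CPM in late and 129, 118 and 124 CPM in early ovaries (-3.03 ± 0.13), and the tetraspanin gene *TM4SF* had 9.79, 12.7 and 12.8 CPM in late and 114.7, 106 and 116 CPM in early ovaries (-3.24 ± 0.15).

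By size of change, the 5 named rises included a fat body gene induced by ecdysone and another ecdysone-induced gene. *Fbp1* (3L, 14094589 to 14098053), which encodes the fat body receptor for larval serum proteins and is induced by ecdysone, had 5610.1, 7643 and 3781 CPM in late ovaries, against 0.417, 0.336 and 0.4202 CPM in early ovaries (13.797 ± 1.48, adjusted p = 0.00015). Of the 9 fat body markers, 4 were higher (*Fbp1*, *Fbp2*, *Lsp2* and *Obp99b*) and 3 lower (*apolpp*, *Apoltp* and *Lsp1beta*) in late ovaries, so that their falling sum does not describe each of them. The call of *Lsp1beta* (late 2 or 3; up to 0.015) was lost without the libraries named. *Eig71Ec* (3L, 15651479 to 15652254), another ecdysone-induced gene, had 24.4, 8.28 and 4.82 CPM in late ovaries, against 0 CPM in each library of early ovaries, which makes it at least 296-fold higher in late ovaries against a floor of 3 counts over the early group. *CG4950*, *yellow-c* and *CG6739* followed: *yellow-c*, of the yellow family of secreted proteins, had 93.4, 111 and 89.5 CPM in late ovaries, against 0.522, 0.288 and 0 CPM in early ovaries. *CG6739* had 40.8, 56.3 and 41.3 CPM in late ovaries, against 0.0522, 0.04796 and 0.194 CPM in early ovaries, and *CG4950* had 15.4, 14.5 and 11.9 CPM in late ovaries and at most 0.048 CPM in early ones.

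The largest falls among abundant genes were of transcripts that were at 0 in every late library. *Gnmt* (3R, 12674608 to 12676084), which encodes glycine N-methyltransferase, an enzyme of fat body methyl metabolism, had 376, 267 and 44.3 CPM in early ovaries and was at least 4700.4-fold lower in late ovaries. Its early libraries were far apart, with replicate 3 the lowest. *CG31664* had 50.2, 53.6 and 27.9 CPM in early ovaries (at least 900.4-fold lower in late), and *ng2*, a new glue gene of the salivary gland, had 4.23, 67.7 and 55.3 CPM (at least 869.7-fold lower). Larval cuticle genes *Lcp65Ag3*, with 18.4, 52.04 and 52.9 CPM in early ovaries, and *Lcp65Af*, with 14.7, 56.9 and 45.2 CPM, were at least 843-fold and 798-fold lower in late ovaries. The call of *ng2* was lost without early 2, any late library or mid 3, with an adjusted p of up to 0.017. New glue and *Lcp65A* genes have near-identical copies, among which the counting may divide reads.

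Ecdysone response genes were mostly higher or not called in late ovaries. Of 20 receptor and response transcription factors, 19 were tested, and 10 were higher and 2 lower at 120 h AEL, with a median log2 fold change of 1.33 against -0.05 over all genes tested. Without early replicate 3 the counts were 13 and 1, and 9 higher and 0 lower calls held in every fit that left out 1 library. The nuclear receptor *Hr3*, a direct ecdysone target, had 194, 173 and 168 CPM in late ovaries, against 2.45, 3.07 and 2.49 CPM in early ovaries (6.06 ± 0.31, adjusted p = 4.2e-06), after 0.689, 0.4597 and 0.108 CPM at mid. Of the receptors encoded by *Eip78C* and *Hr4*, the first had 177, 153 and 165 CPM in late ovaries, against 19.98, 17.4 and 22.6 CPM in early ovaries (3.04 ± 0.15) and dipped to 6.37, 5.86 and 7.57 CPM at mid. *Hr4* had 195, 149.6 and 151 CPM in late ovaries, against 12.8, 14.4 and 18.97 CPM in early ovaries (3.42 ± 0.21). Late libraries of all of these lay far above every early library.

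*Eip75B*, a heme-binding nuclear receptor of the same cascade, had 316, 271 and 283 CPM in late ovaries, against 68.3, 52.9 and 60.5 CPM in early ovaries (2.26 ± 0.14). The Ets factor gene *Eip74EF* had 155, 118 and 114 CPM in late ovaries, against 28.1, 14.6 and 25.1 CPM in early ovaries (2.51 ± 0.26) and lay at 53.2, 41.4 and 37.98 CPM at mid, between the other stages. *br*, which encodes the Broad zinc finger proteins that mark the start of metamorphosis, was the most abundant of these genes, with 2389, 1537 and 1540.4 CPM in late ovaries, against 260.3, 241 and 433 CPM in early ovaries (2.55 ± 0.305, adjusted p = 0.00027). Late libraries of all 3 genes lay above every early library. *Eip93F*, a factor of the later metamorphic response, had 33.8, 33.4 and 18.5 CPM in late ovaries, against 0.209, 0.576 and 1.62 CPM in early ovaries (5.08 ± 0.61), and *Sox14* had 37.4, 30.6 and 40.3 CPM in late ovaries, against 13.9, 12.2 and 16.8 CPM in early ovaries (1.33 ± 0.18). *Blimp-1*, an ecdysone-induced repressor, was at 0 in every early library and at 0.869, 1.14 and 1.26 CPM in late ovaries (adjusted p = 0.0036).

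*Kr-h1*, known as a target of juvenile hormone, was also higher in late ovaries, with 264, 169.8 and 253 CPM in late ovaries, against 73.03, 61.2 and 109 CPM in early ovaries (1.498 ± 0.26, adjusted p = 0.0019), while *gce*, which encodes a juvenile hormone receptor, was lower, with 4.26, 2.201 and 2.68 CPM in late ovaries, against 13.7, 13.1 and 16.3 CPM in early ovaries (-2.25 ± 0.39, adjusted p = 0.0022). *ftz-f1*, a nuclear receptor gene expressed when ecdysone falls, had 58.8, 74.7 and 44.7 CPM in late ovaries, against 108, 106 and 149 CPM in early ovaries (-1.03 ± 0.23, adjusted p = 0.0081). The receptor genes themselves did not pass the test: *EcR* had 52.5, 49.7 and 34.98 CPM in late ovaries, against 51.3, 43.6 and 63.7 CPM in early ovaries (-0.21 ± 0.23, adjusted p = 0.52), with overlapping stages, and *usp* had 40.7, 44.3 and 49.02 CPM in late ovaries, against 37.6, 37.03 and 32.2 CPM in early ovaries (0.33 ± 0.13, adjusted p = 0.07). Leaving out 1 library ended the calls of *Blimp-1* (any late library; up to 0.025), *gce* (late 2 or 3; up to 0.013) and *ftz-f1* (any early library, mid 3, late 1 or 3; up to 0.032), where the libraries and the largest adjusted p are given.

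Of 13 genes of ecdysone uptake, synthesis and turnover, 10 were tested, and 1 was higher and 2 lower (2 and 2 without early replicate 3). The shares were 10% and 20%, against 8.39% and 13.5% of all genes tested. *Cyp18a1*, whose enzyme inactivates the hormone, had 1.58, 1.41 and 1.22 CPM in late ovaries, against 18.8, 13.6 and 20.8 CPM in early ovaries (-3.67 ± 0.25, adjusted p = 1.7e-05), and *shd*, whose enzyme makes the active hormone from ecdysone, had 0.474, 0.2201 and 0.153 CPM in late ovaries, against 6.62, 4.22 and 2.42 CPM in early ovaries (-4.04 ± 0.71, adjusted p = 0.0021). *Npc1a*, needed for sterol transport within cells, had 153, 146 and 139 CPM in late ovaries, against 76.6, 76.98 and 103 CPM in early ovaries (0.77 ± 0.14, adjusted p = 0.0028). *Oatp74D*, the ecdysone importer, overlapped between late (82.9, 89.1 and 96.8 CPM) and early (127, 88.2 and 74.1 CPM) ovaries and was highest at mid, at 241, 176 and 222 CPM. The calls of *shd* (late 2 or 3; up to 0.014) and *Npc1a* (early 1 or 2, late 1 or 2; up to 0.013) were lost without the libraries named.

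Of 13 ecdysone-inducible effectors, 10 were tested and 4 were higher, all of them in every fit that left out 1 library, with none lower. These were *Fbp1*, which is also a fat body marker, *ImpE1*, *ImpE3* and *Eip63E*. *ImpE1*, an ecdysone-inducible gene of imaginal discs, had 102, 81.9 and 84.9 CPM in late ovaries, against 1.15, 1.15 and 3.297 CPM in early ovaries (5.53 ± 0.54, adjusted p = 9.5e-05). *ImpE3* had 11.2, 12.8 and 16.7 CPM in late ovaries, against 1.41, 1.63 and 1.13 CPM in early ovaries (3.29 ± 0.295), and *Eip63E*, which encodes a cyclin-dependent kinase, had 293, 299.6 and 232 CPM in late ovaries, against 85.2, 66.6 and 96.5 CPM in early ovaries (1.73 ± 0.22). Among 18 heat shock and chaperone genes tested, 2 were higher and 3 lower (3 and 3 without early replicate 3). The shares, 11.1% and 16.7%, were near the 8.39% and 13.5% of all genes tested. *Hsp67Ba*, of the ecdysone-responsive small heat shock gene cluster, had 85.7, 111 and 124 CPM in late ovaries, against 28.2, 33.5 and 24.2 CPM in early ovaries (1.905 ± 0.23). The mitochondrial chaperone gene *Hsp60A* had 284, 385 and 419 CPM in late ovaries, against 1196, 1059.9 and 624 CPM in early ovaries (-1.404 ± 0.26). The call of *Hsp60A* (early 1 or 2, late 1 or 2; up to 0.016) was lost without the libraries named.

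**Figure D3:**
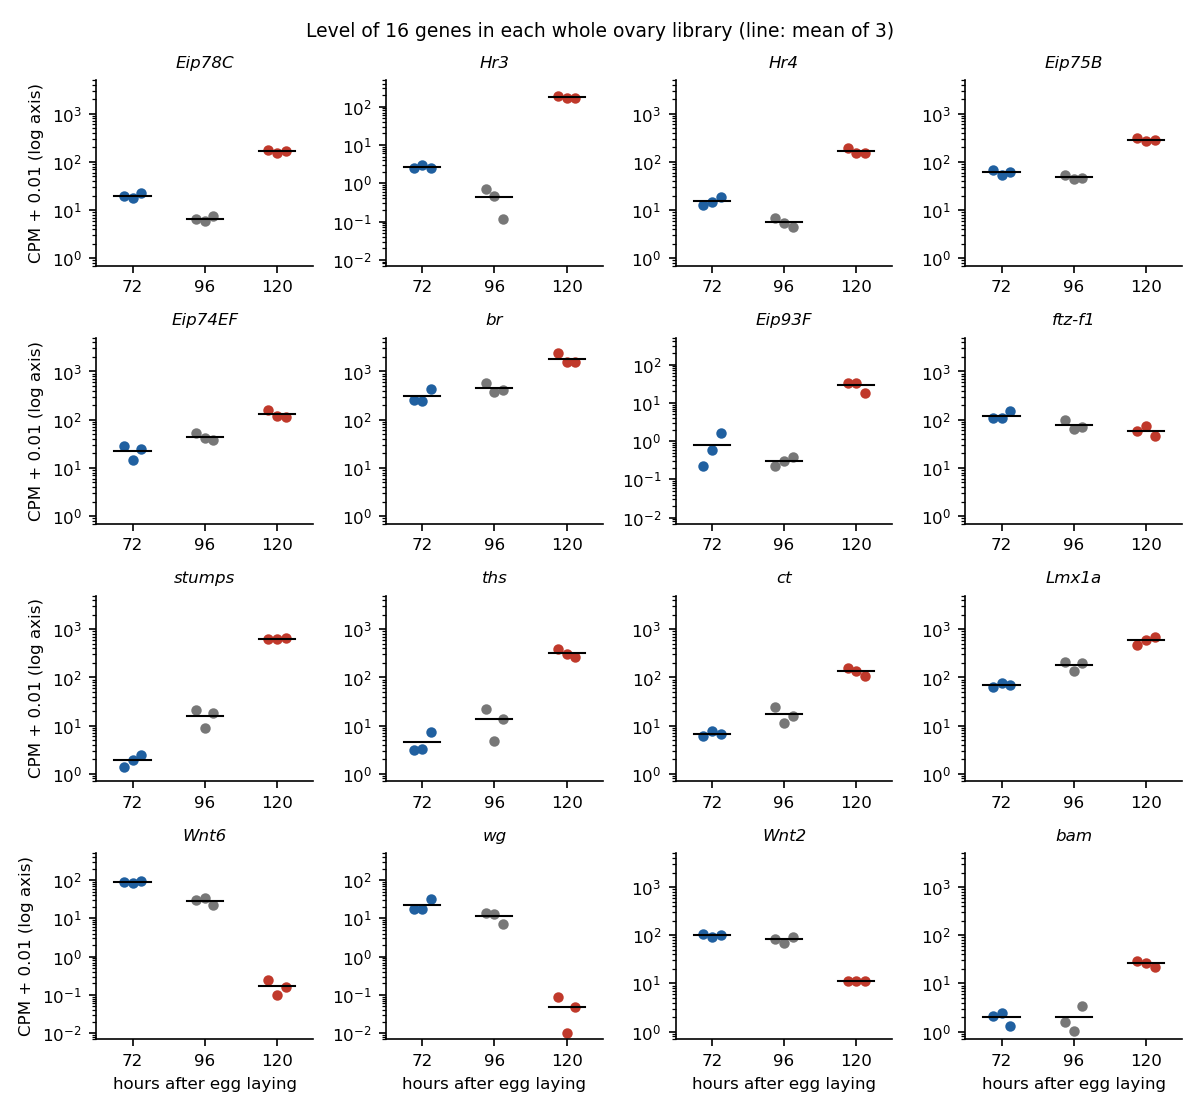
CPM with 0.01 added (log axis) of 16 genes in each whole ovary library at 72, 96 and 120 h AEL; points are libraries and lines the means of 3. *Eip78C* and *Hr3* dip at mid, *bam* stays low until mid, and all of these are high at 120 h. *Eip74EF* and *Lmx1a* climb over both intervals, and *Wnt6* and *wg* are lost by 120 h.

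Many transcription factors of the somatic gonad and the terminal filaments rose. Of 25 listed genes 21 were tested, and 12 were higher and 2 lower in late ovaries, with a median log2 fold change of 1.62; without early replicate 3 there were 15 and 2, and 9 of the higher calls held whichever library was left out. *Lmx1a*, a LIM homeobox gene needed for terminal filament shape, had 481, 596 and 705 CPM in late ovaries, against 63.4, 77.1 and 70.6 CPM in early ovaries (3.08 ± 0.22, adjusted p = 2.0e-05) and lay at 205, 134 and 199 CPM at mid. *ct*, the homeobox gene *cut*, had 156, 139 and 105 CPM in late ovaries, against 5.95, 7.63 and 6.72 CPM in early ovaries (4.299 ± 0.31). Of the gonadal mesoderm regulators, *Six4* had 15.95, 13.7 and 16.7 CPM in late ovaries, against 0.104, 0.0959 and 0.291 CPM in early ovaries (6.42 ± 0.45), and *eya* had 20.1, 23.9 and 29.4 CPM in late ovaries, against 2.295, 3.55 and 2.55 CPM in early ovaries (3.13 ± 0.24). Late libraries of all of these exceeded every early library several times over.

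The *engrailed* paralogs, which mark terminal filament cells, were both higher: *inv* had 19.7, 19.2 and 24.05 CPM in late ovaries, against 3.23, 3.31 and 4.36 CPM in early ovaries (2.52 ± 0.25, adjusted p = 9.3e-05), and *en* had 8.06, 6.65 and 9.86 CPM in late ovaries, against 0.574, 0.767 and 0 CPM in early ovaries (4.24 ± 0.902, adjusted p = 0.0057). *bab1* and *bab2*, the *bric-à-brac* genes that terminal filament formation requires, rose less, with 76.8, 65.4 and 58.3 CPM in late ovaries, against 18.6, 20.1 and 26.4 CPM in early ovaries for *bab1* (1.62 ± 0.25, adjusted p = 0.0012) and 979, 769.6 and 675 CPM in late ovaries, against 278, 327 and 508 CPM in early ovaries for *bab2* (1.12 ± 0.26, adjusted p = 0.0094). The Iroquois genes *mirr*, with 290.1, 200.4 and 209 CPM in late and 32.6, 45.99 and 69.3 CPM in early ovaries (2.24 ± 0.31), and *caup*, with 23.2, 26.1 and 27.6 CPM in late and 4.23, 5.08 and 5.88 CPM in early ovaries (2.34 ± 0.202), and the zinc finger gene *zfh1*, with 623, 525 and 434 CPM in late and 128, 148 and 193 CPM in early ovaries (1.75 ± 0.23), were higher too.

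The 2 lower genes were *Abd-B*, a posterior Hox gene, with 13.98, 12.6 and 11.5 CPM in late ovaries, against 24.3, 26.1 and 41.6 CPM in early ovaries (-1.28 ± 0.24, adjusted p = 0.0033), and *foxo*, the transcription factor that insulin signalling holds in check (-0.65 ± 0.13, adjusted p = 0.0047). *tj*, the large Maf factor of intermingled somatic cells, had 239, 256 and 288 CPM in late ovaries, against 337, 411 and 459.9 CPM in early ovaries and did not pass (-0.63 ± 0.15, adjusted p = 0.011), although its stages did not overlap. Calls of *en* (early 1 or 2, mid 1 or 3, any late library; up to 0.023), *bab2* (early 1 or 2, mid 1 or 3, any late library; up to 0.039), *Abd-B* (any late library; up to 0.017) and *foxo* (early 1 or 2, mid 3, late 1 or 3; up to 0.023) were lost without the libraries named. A list of 12 genes that the study itself discusses in ovary development had 9 higher and 1 lower; it was chosen on these samples and is not independent evidence. Of it, the neuropeptide receptor gene *Dh44-R2* had 54.6, 47.7 and 47.03 CPM in late ovaries, against 12.3, 8.97 and 6.72 CPM in early ovaries (2.42 ± 0.23), and *RhoGEF64C* had 1.26, 1.06 and 1.11 CPM in late ovaries, against 12.9, 12.3 and 14.996 CPM in early ovaries (-3.56 ± 0.36).

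**Figure D4:**
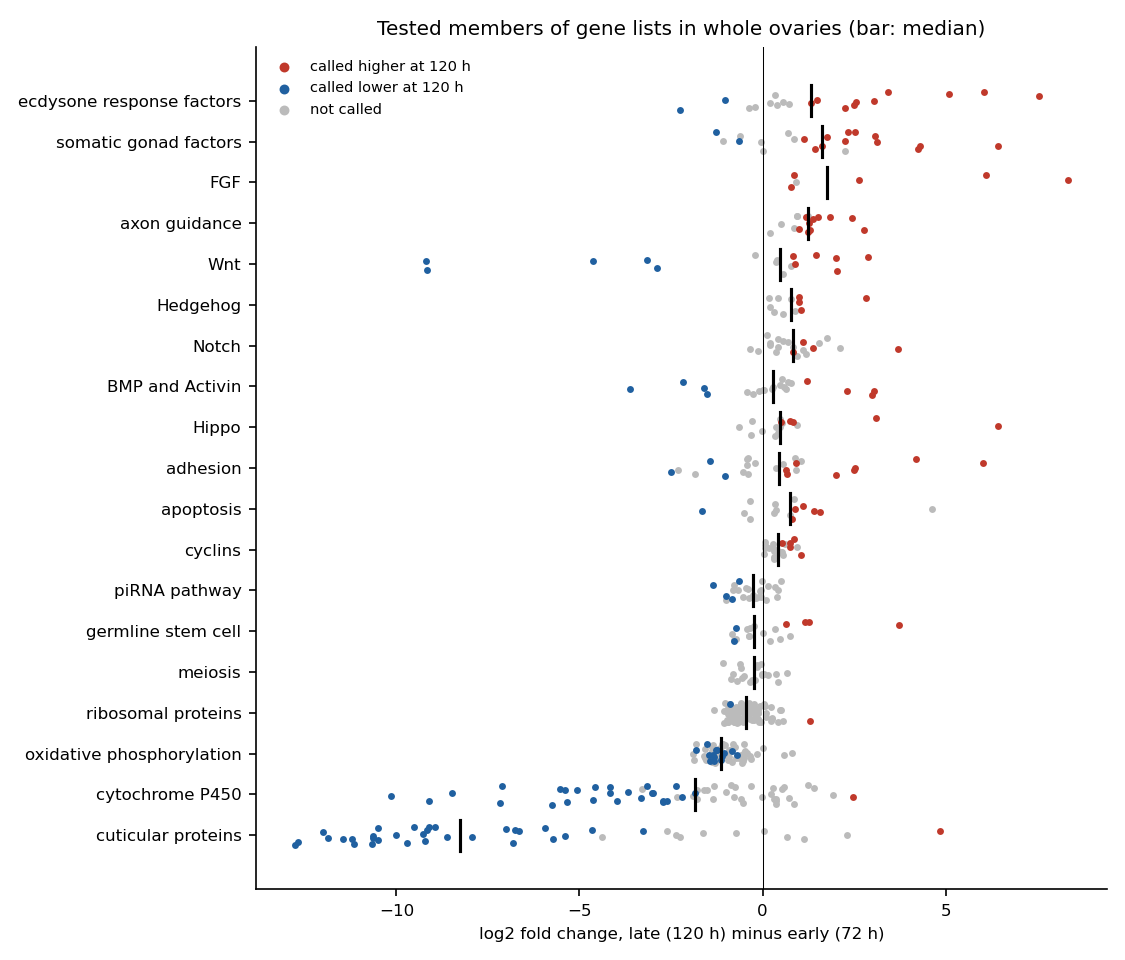
Log2 fold change, late minus early, of each tested member of 19 gene lists; red members were called higher and blue ones lower at 120 h, grey ones were not called, and the bar is the list's median. Medians of the ecdysone response (1.33), somatic gonad (1.62) and FGF (1.77) lists lie to the right. Those of oxidative phosphorylation (-1.13), cytochrome P450 (-1.84) and cuticular protein genes (-8.27) lie to the left. Members at 0 in a stage passed the filter on counts through other stages, and their fitted values depend on the prior count.

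Most FGF signalling genes rose. All 6 genes were tested and 5 were higher in late ovaries, with a median log2 fold change of 1.77; without early replicate 3 all 6 were called. The ligand gene *ths*, an FGF8-like gene that acts in mesoderm migration, had 396, 309 and 259.6 CPM in late ovaries, against 3.13, 3.31 and 7.401 CPM in early ovaries (6.097 ± 0.61, adjusted p = 0.00011), with 22.1, 4.71 and 13.7 CPM at mid. Its receptor gene *htl* rose less, with 118, 114 and 97.3 CPM in late ovaries, against 58.5, 66.8 and 67.2 CPM in early ovaries (0.77 ± 0.15, adjusted p = 0.0041). The adaptor *stumps* is given above. The other receptor, *btl*, best known from the trachea, had 7.897, 12.2 and 6.73 CPM in late ovaries, against 1.62, 1.82 and 0.873 CPM in early ovaries (2.64 ± 0.48, adjusted p = 0.0025), and its ligand gene *bnl* had 23.8, 17.6 and 22.9 CPM in late ovaries, against 12.8, 12.1 and 10.4 CPM in early ovaries (0.87 ± 0.17, adjusted p = 0.0042). *pyr*, the partner ligand of *ths*, had 53.6, 46.3 and 32.7 CPM in late ovaries, against 19.2, 18.8 and 32.6 CPM in early ovaries and was not called (0.904 ± 0.26, adjusted p = 0.022), with early replicate 3 at the level of late replicate 3. Calls of *htl* (early 1 or 2, late 1 or 2; up to 0.019), *btl* (late 2; up to 0.013) and *bnl* (early 2, mid 3, late 1 or 3; up to 0.02) were lost without the libraries named, while those of *ths* and *stumps* held.

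Wnt signalling genes moved in both directions. Of 16 tested genes (19 listed), 6 were higher and 5 lower (8 and 5 without early replicate 3), and 5 of each held in every fit that left out 1 library. Besides *Wnt6* and *Wnt2*, *wg*, the founding Wnt ligand gene, had 0.07897, 0 and 0.0382 CPM in late ovaries, against 17.6, 17.3 and 31.9 CPM in early ovaries (-9.17 ± 0.64, adjusted p = 1.8e-05). *Notum*, a secreted enzyme that inactivates Wnt ligands and is a feedback target of the pathway, had 1.18, 0.528 and 0.497 CPM in late ovaries, against 11.3, 15.5 and 25.8 CPM in early ovaries (-4.64 ± 0.43), and *fz3*, a receptor gene known as a *wg* target, had 2.37, 2.29 and 2.06 CPM in late ovaries, against 17.9, 16.2 and 15.97 CPM in early ovaries (-2.896 ± 0.18). These genes were low or near 0 in every late library. In the other direction, the receptor gene *fz2*, which *wg* signalling represses in wing discs, had 844, 968 and 854 CPM in late ovaries, against 205, 209.7 and 247 CPM in early ovaries (2.01 ± 0.204, adjusted p = 0.00011), and the co-receptor gene *arr* had 462, 339 and 334 CPM in late ovaries, against 81.8, 69.9 and 128 CPM in early ovaries (2.02 ± 0.26). The Ryk receptor gene *dnt* had 103, 105 and 97.4 CPM in late ovaries, against 37.7, 32.997 and 40.9 CPM in early ovaries (1.45 ± 0.16). *Wnt4*, a ligand with a known part in the movement of larval ovary cells, rose, with 480.1, 459.6 and 501 CPM in late ovaries, against 251, 241 and 291 CPM in early ovaries (0.88 ± 0.14, adjusted p = 0.0012). *Wnt5* had 88.2, 77.6 and 68.4 CPM in late ovaries, against 40.7, 46.1 and 71.6 CPM in early ovaries and was not called.

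Of 11 tested Hedgehog pathway genes, 4 were higher and none lower, with a median of 0.78; without early replicate 3 the count was 7. The co-receptor gene *boi* had 368, 349 and 312 CPM in late ovaries, against 49.2, 36.5 and 58.6 CPM in early ovaries (2.83 ± 0.28, adjusted p = 0.00011). *hh*, the ligand gene expressed by terminal filament cells, had 38.5, 45.4 and 44.5 CPM in late ovaries, against 24.2, 24.03 and 16.6 CPM in early ovaries (0.99 ± 0.196, adjusted p = 0.0042). The receptor and target gene *ptc* had 508, 399 and 400.05 CPM in late ovaries, against 189.8, 201 and 263 CPM in early ovaries (0.999 ± 0.199, adjusted p = 0.0043), and the transducer gene *smo* had 205, 187 and 193 CPM in late ovaries, against 73.4, 77.7 and 134 CPM in early ovaries (1.04 ± 0.25, adjusted p = 0.0099). Only *boi* was called in every fit; the calls of *hh* (early 2, any late library; up to 0.021), *ptc* (early 1 or 2, any late library; up to 0.02) and *smo* (early 1 or 2, mid 2 or 3, any late library; up to 0.039) were lost without the libraries named. *ci*, the transcription factor of the pathway, had 444, 379 and 377 CPM in late ovaries, against 269, 277 and 418 CPM in early ovaries and was not called.

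Of 21 tested Notch pathway genes, 4 were higher and none lower (median 0.83), and 8 were higher without early replicate 3. The target gene *E(spl)m7-HLH* had 8.92, 42.7 and 35.7 CPM in late ovaries, against 2.71, 2.35 and 1.68 CPM in early ovaries (3.704 ± 0.56, adjusted p = 0.001), with late replicate 1 well below the other late libraries. *Ser*, a Notch ligand gene, had 83.6, 53.05 and 56.7 CPM in late ovaries, against 21.4, 23.1 and 30.3 CPM in early ovaries (1.37 ± 0.26, adjusted p = 0.0031), *Nct*, a gamma-secretase subunit gene, had 249, 229 and 205 CPM in late and 88.2, 90.7 and 137 CPM in early ovaries (1.11 ± 0.18), and *Su(H)*, the DNA-binding factor of the pathway, had 29.5, 28.5 and 28.6 CPM in late and 15.7, 14.6 and 18.5 CPM in early ovaries (0.83 ± 0.15). The other ligand gene, *Delta*, had 90.2, 66.04 and 50.9 CPM in late ovaries, against 18.05, 31.1 and 41.8 CPM in early ovaries and was not called (1.18 ± 0.34, adjusted p = 0.023), nor was *N* (0.93 ± 0.23, adjusted p = 0.011). Calls of *Ser* (early 1 or 2, late 1; up to 0.015) and *Su(H)* (early 1 or 2, any late library; up to 0.015) were lost without the libraries named.

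BMP and Activin genes changed in both directions, with 4 higher and 4 lower of 21 tested; without early replicate 3 the counts were 8 and 3. Among the rises, the type I receptor gene *tkv* had 567, 572 and 509 CPM in late ovaries, against 109, 97.9 and 129 CPM in early ovaries (2.29 ± 0.197, adjusted p = 5.4e-05), *brk*, the repressor of Dpp target genes, had 77.2, 68.8 and 69.3 CPM in late ovaries, against 10.7, 7.43 and 9.18 CPM in early ovaries (2.98 ± 0.26), and *sog*, a secreted BMP antagonist, had 26.3, 28.2 and 30.8 CPM in late ovaries, against 4.59, 3.84 and 1.94 CPM in early ovaries (3.05 ± 0.31). The type II receptor gene *wit* had 83.2, 75.5 and 66.2 CPM in late ovaries, against 36.04, 31.9 and 29.8 CPM in early ovaries (1.202 ± 0.14). Late libraries of all of these were above every early library. Among the falls, *dpp* had 8.45, 6.91 and 6.39 CPM in late ovaries, against 20.03, 21.4 and 24.01 CPM in early ovaries (-1.59 ± 0.34, adjusted p = 0.0062), the Activin-like ligand gene *daw* had 3.79, 5.81 and 2.29 CPM in late ovaries, against 55.9, 54.7 and 35.002 CPM in early ovaries (-3.61 ± 0.65, adjusted p = 0.0025), and *Dad*, an inhibitory Smad induced by Dpp, had 27.6, 22.7 and 18.4 CPM in late ovaries, against 53.8, 54.7 and 86.6 CPM in early ovaries (-1.51 ± 0.25, adjusted p = 0.0015). *tok*, a Tolloid-family protease gene, had 51.2, 47.4 and 43.5 CPM in late ovaries, against 253, 222 and 170.1 CPM in early ovaries (-2.18 ± 0.34). Calls of *dpp* (any early library, any late library; up to 0.029) and *daw* (late 1 or 3; up to 0.015) were lost without the libraries named.

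In the EGFR pathway, 4 of 19 genes were higher and none lower, and 7 were higher without early replicate 3. *spi*, the gene of the main ligand, had 199, 219.7 and 195 CPM in late and 128, 116 and 117 CPM in early ovaries (0.77 ± 0.12), and *Ras85D*, the gene of the small GTPase below the receptor, had 184, 165 and 159 CPM in late and 91.9, 93.4 and 90.6 CPM in early ovaries (0.88 ± 0.11). Of 7 JAK/STAT genes 0 were higher and 1 lower (1 and 1 without early replicate 3). Of 16 insulin and TOR pathway genes 0 were higher and 3 lower (2 and 3 without early replicate 3), among them *Thor*, the translation repressor gene induced when insulin signalling is low, with 14.1, 16.2 and 11.4 CPM in late ovaries, against 139, 107 and 42.5 CPM in early ovaries (-2.79 ± 0.38, adjusted p = 0.00058).

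Some Hippo pathway genes rose. *dachs*, an atypical myosin that acts below the Fat protocadherin, had 172, 199 and 201 CPM in late ovaries, against 2.504, 2.302 and 1.91 CPM in early ovaries (6.42 ± 0.34, adjusted p = 4.5e-06), and *ds*, the Dachsous protocadherin gene, had 555, 347 and 297 CPM in late ovaries, against 38.2, 33.9 and 66.97 CPM in early ovaries (3.11 ± 0.39, adjusted p = 0.00035). In all, 5 of 16 genes were higher and none lower (7 and 0 without early replicate 3). The core genes *hpo*, *yki* and *mats* rose by little, with log2 fold changes of 0.83 ± 0.12, 0.74 ± 0.16 and 0.51 ± 0.12, while *ft* had 10.5, 5.33 and 5.62 CPM in late ovaries, against 10.4, 10.4 and 12.2 CPM in early ovaries and was not called. Calls of *yki* (early 1 or 2, mid 1 or 3, any late library; up to 0.032) and *mats* (early 1 or 2, mid 1 or 3, any late library; up to 0.031) were lost without the libraries named.

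Adhesion genes of the immunoglobulin class gave the largest rises among 24 adhesion genes, of which 8 were higher and 3 lower (12 and 3 without early replicate 3). *Ama*, a secreted immunoglobulin protein, had 783, 954 and 1076 CPM in late ovaries, against 15.3, 17.2 and 11.3 CPM in early ovaries (6.01 ± 0.36, adjusted p = 9.2e-06), and *Nrt*, its known binding partner, had 1330.2, 1486 and 1498 CPM in late ovaries, against 265, 223 and 273 CPM in early ovaries (2.503 ± 0.24). *tutl* had 288, 229 and 225 CPM in late ovaries, against 9.18, 10.2 and 20.7 CPM in early ovaries (4.20 ± 0.39), *ed*, the Echinoid gene, 473, 449 and 384 CPM in late and 64.3, 66.9 and 94.9 CPM in early ovaries (2.53 ± 0.202), and *Fas3*, a septate junction adhesion gene, 92.1, 103 and 90.3 CPM in late and 26.3, 25.5 and 19.7 CPM in early ovaries (2.001 ± 0.18). All 5 were called whichever library was left out. Falls were seen for *Con*, with 5.84, 3.79 and 3.56 CPM in late ovaries, against 23.4, 18.8 and 31.3 CPM in early ovaries (-2.49 ± 0.26), and for the neuroglian gene *Nrg*, with 270.4, 247 and 233 CPM in late ovaries, against 505, 449 and 572 CPM in early ovaries (-1.03 ± 0.14). The classical cadherins did not pass: E-cadherin, *shg*, had 464, 430.03 and 374 CPM in late ovaries, against 475, 495 and 741 CPM in early ovaries (-0.43 ± 0.204, adjusted p = 0.13), and N-cadherin, *CadN*, had 645, 468 and 423 CPM in late ovaries, against 213, 203 and 331 CPM in early ovaries (1.04 ± 0.28, adjusted p = 0.017). None of 5 innexins tested was called.

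Axon guidance genes, whose ligand and receptor pairs also steer migrating mesodermal cells, had 10 higher and none lower of 16 tested, with a median of 1.24, and 15 were higher without early replicate 3. Of the 16, 15 were in the longest class of exonic length. The Netrin receptor gene *fra* had 824, 637 and 575 CPM in late ovaries, against 114, 101 and 161 CPM in early ovaries (2.44 ± 0.29, adjusted p = 0.00028), and *NetB*, a Netrin gene, had 51.4, 40.8 and 30.9 CPM in late ovaries, against 4.49, 4.46 and 9.08 CPM in early ovaries (2.76 ± 0.37). *sli*, the Slit ligand gene, had 559.9, 431 and 403 CPM in late ovaries, against 143, 133 and 211 CPM in early ovaries (1.52 ± 0.25, adjusted p = 0.0017), with its receptor genes *robo1* at 123, 104 and 90.5 CPM in late and 35.2, 35.3 and 51.2 CPM in early ovaries (1.38 ± 0.2003) and *robo2* at 469, 472 and 399.8 CPM in late and 185, 173 and 195 CPM in early ovaries (1.27 ± 0.15). Ligand and receptor were thus higher in both pairs, and these 5 calls held in every fit. The semaphorin and plexin genes called were smaller, such as *PlexA* (1.25 ± 0.29), whose call was lost without any 1 library other than early replicate 3, with an adjusted p of up to 0.039.

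Of 20 actin turnover and myosin genes, 6 were higher and 1 lower (11 and 1 without early replicate 3). *Act5C*, the main cytoplasmic actin gene, had 6735, 7589 and 7926 CPM in late ovaries, against 4201, 4547 and 3728 CPM in early ovaries (0.83 ± 0.17, adjusted p = 0.0052), and *Myo31DF*, a type I myosin gene, had 284, 344 and 275 CPM in late ovaries, against 147, 116 and 173 CPM in early ovaries (1.05 ± 0.17), while the myosin VI gene *jar* had 80.2, 87.3 and 73.8 CPM in late ovaries, against 159.7, 138 and 136 CPM in early ovaries (-0.84 ± 0.12). *tsr*, the cofilin gene that terminal filament cells need for stacking, had 447, 516 and 784 CPM in late ovaries, against 815, 739.8 and 317 CPM in early ovaries, with early replicate 3 below every late library, and was not called. The call of *Act5C* (early 1 or 2, mid 1 or 3, any late library; up to 0.028) was lost without the libraries named.

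Basement membrane genes moved in opposite directions. Of 13 tested, 2 were higher and 4 lower (3 and 4 without early replicate 3). *wb*, a laminin alpha chain gene, had 386, 343 and 262 CPM in late ovaries, against 9.598, 10.4 and 13.2 CPM in early ovaries (4.895 ± 0.26, adjusted p = 4.5e-06), and *Ndg*, the nidogen gene, had 48.4, 43.5 and 42.1 CPM in late ovaries, against 11.4, 8.201 and 10.4 CPM in early ovaries (2.16 ± 0.22). The collagen IV genes fell, with 1251, 1546 and 1528 CPM in late ovaries, against 18901, 15389.9 and 8849.5 CPM in early ovaries for *Col4a1* (-3.32 ± 0.51, adjusted p = 0.0011) and 855, 989 and 918 CPM in late ovaries, against 8387, 7170.4 and 4470.2 CPM in early ovaries for *vkg* (-2.86 ± 0.49, adjusted p = 0.0019). *SPARC*, a collagen-binding protein gene, had 164, 195 and 233 CPM in late ovaries, against 2596, 2031 and 817 CPM in early ovaries (-3.201 ± 0.49), and the perlecan gene *trol* had 2485, 1828 and 1639.9 CPM in late ovaries, against 4881, 4528 and 5001 CPM in early ovaries (-1.28 ± 0.21). Larval fat body and haemocytes are known to secrete collagen IV and SPARC. The fat body and haemocyte marker sums were lower in late ovaries as given above, and the part of these tissues in the falls was not tested. In sorted somatic cells, collagen IV went the other way: *Col4a1* averaged 2241 ± 70.4 CPM in late and 35.01 ± 34.05 CPM in early somatic cells (SD, n = 3 each; log2 fold change 5.9997 ± 0.82, adjusted p = 0.0014), and *vkg* 1338 ± 48.4 and 16.3 ± 20.6 CPM (6.362 ± 1.13). The difference between whole ovaries and somatic cells in the change was -9.303 ± 0.95 for *Col4a1* (adjusted p = 2.9e-05) and -9.203 ± 1.13 for *vkg*. Of the list, 7 genes were higher and 1 lower in somatic cells. Calls of *vkg* (any late library; up to 0.013) and *trol* (late 2 or 3; up to 0.013) in whole ovaries were lost without the libraries named.

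Some cell cycle genes rose by small amounts. Of 22 cyclins and cell cycle switches, 5 were higher and none lower, every log2 fold change was above 0, and the median was 0.41; without early replicate 3, 10 were called. *CycB*, the mitotic cyclin gene, had 607, 581 and 624 CPM in late ovaries, against 248, 278 and 348 CPM in early ovaries (1.05 ± 0.17, adjusted p = 0.0013), and *Cdk4*, the cyclin D partner, had 81.4, 68.3 and 77.004 CPM in late ovaries, against 38.96, 41.2 and 44.9 CPM in early ovaries (0.86 ± 0.13). These 2 calls held in every fit. Among 23 replication licensing genes 1 was higher and 1 lower (4 and 1 without early replicate 3).

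Of 15 tested apoptosis genes, 5 were higher and 1 lower (7 and 1 without early replicate 3). The initiator caspase gene *Dronc* had 52.4, 56.7 and 56.5 CPM in late ovaries, against 19.04, 19.2 and 18.1 CPM in early ovaries (1.56 ± 0.11, adjusted p = 2.0e-05), the effector caspase gene *Drice* had 122, 120.4 and 123 CPM in late ovaries, against 48.2, 57.9 and 62.5 CPM in early ovaries (1.11 ± 0.13), and *Diap1*, the inhibitor of both, had 238, 316 and 216 CPM in late ovaries, against 90.2, 89.97 and 113 CPM in early ovaries (1.39 ± 0.17). The TNF ligand gene *egr* was lower, with 12.1, 13.03 and 11.3 CPM in late ovaries, against 47.9, 33.7 and 33.6 CPM in early ovaries (-1.66 ± 0.22, adjusted p = 0.00055). *rpr*, a killer gene that ecdysone can induce, overlapped between late (1.42, 0.792 and 1.15 CPM) and early (1.15, 1.44 and 0.162 CPM) ovaries and was highest at mid (5.43, 5.17 and 6.98 CPM).

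Of 26 piRNA pathway genes 0 were higher and 4 lower (2 and 4 without early replicate 3), with a median of -0.25. The share lower, 15.4%, was close to the 13.5% of all genes tested. *mael* had 22.98, 30.4 and 32.002 CPM in late ovaries, against 75.6, 69.7 and 72.4 CPM in early ovaries (-1.35 ± 0.14, adjusted p = 0.00013), *papi*, a Tudor protein gene, had 71.4, 77.7 and 80.1 CPM in late and 169, 139 and 152 CPM in early ovaries (-1.01 ± 0.12), and *vas*, the germ cell helicase gene, had 181, 165 and 159 CPM in late ovaries, against 309, 263 and 329 CPM in early ovaries (-0.84 ± 0.12, adjusted p = 0.00085). The summed level of the germ cell markers was lower in every late library, but *vas* itself makes up most of that sum, so it is not a separate observation. None of 22 synaptonemal complex and meiotic recombination genes passed the test, with a median of -0.23.

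*bam*, the switch gene for germ cell differentiation, had 29.4, 26.3 and 22.3 CPM in late ovaries, against 2.14, 2.45 and 1.33 CPM in early ovaries (3.73 ± 0.44, adjusted p = 0.00026) and 1.55, 1.03 and 3.46 CPM at mid. In sorted germ cells *bam* averaged 107 ± 50.4 CPM at late and 6.41 ± 2.36 CPM at early (SD, n = 3 each), which did not pass the test there, and its rise was larger in whole ovaries than in somatic cells by 3.17 ± 0.69 (adjusted p = 0.0079). Of 19 germline stem cell and differentiation genes tested, 4 were higher and 2 lower (6 and 2 without early replicate 3). The shares were 21.1% and 10.5%, against 8.39% and 13.5% of all genes tested. *gus* had 168, 169 and 155 CPM in late ovaries, against 58.3, 66.1 and 80.9 CPM in early ovaries (1.26 ± 0.14), *pum*, a translational repressor gene, had 437, 354 and 271 CPM in late ovaries, against 135, 136 and 207 CPM in early ovaries (1.15 ± 0.25), and *bgcn*, whose product acts with Bam, was lower, with 50.3, 49.8 and 48.6 CPM in late ovaries, against 89.5, 68.7 and 89.6 CPM in early ovaries (-0.74 ± 0.15). *nanos* had 40.4, 38.96 and 39.04 CPM in late ovaries, against 54.7, 55.1 and 99.4 CPM in early ovaries and was not called (-0.82 ± 0.22, adjusted p = 0.018). Calls of *pum* (early 1 or 2, mid 3, late 1 or 2; up to 0.027) and *bgcn* (early 1, any late library; up to 0.021) were lost without the libraries named.

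Of 69 nuclear genes of oxidative phosphorylation tested, 14 were lower (20.3%, against 13.5% of all genes tested) and none higher, with a median log2 fold change of -1.13. Without early replicate 3, 57 were lower. Of the 69, 49 were in the shortest class of exonic length, and the part of length was not tested. Their sum was 0.625, 0.664 and 0.755% of the scaled counts in late ovaries, against 1.90, 1.74 and 0.936% in early ovaries, the last value being that of replicate 3. *ATPsynC*, which encodes the ring subunit of ATP synthase, had 655, 629 and 650.3 CPM in late ovaries, against 1676, 1618 and 1369 CPM in early ovaries (-1.27 ± 0.15, adjusted p = 0.00028), and *Cyt-c1*, of complex III, had 159, 169 and 200.2 CPM in late ovaries, against 536, 512 and 381 CPM in early ovaries (-1.44 ± 0.18). Both calls held in every fit. Every late library was below every early one for the sum.

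Cytosolic ribosomal protein genes summed to 8.73, 8.17 and 8.72% of the scaled counts in late ovaries, against 13.8, 12.4 and 5.89% in early ovaries, so that the stages overlapped through early replicate 3. The shortest class of exonic length held 69 of the 90 tested genes of this list. Of 90 tested, 1 was higher and 1 lower, and without that library 2 and 42. Of 73 mitochondrial ribosomal protein genes 1 was higher and 7 lower (9.59%, against 13.5% of all genes tested), and without early replicate 3 the counts were 2 and 45. Among 17 tRNA synthetase genes 4 were lower (7 without it), and of 30 RNA polymerase subunit genes 2 were lower (4 without it), both of polymerase I and both in every fit: *Polr1A* had 139, 139 and 147 CPM in late ovaries, against 298, 257 and 302 CPM in early ovaries (-1.01 ± 0.11), and *Polr1B* had 80.7, 75.8 and 83.5 CPM in late and 134, 122 and 138 CPM in early ovaries (-0.71 ± 0.11). Proteasome genes had 1 higher and 1 lower of 37 tested, and none of 8 CCT chaperonin genes (1 higher without it) or 23 mitochondrial genome genes was called. The mitochondrial genome genes nevertheless summed to between 4.83 and 6.94% of the scaled counts in late and between 7.64 and 9.98% in early ovaries, with no overlap, and 20 of the 23 log2 fold changes were below 0.

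Many detoxification genes fell. Of 57 cytochrome P450 genes tested, 1 was higher and 26 lower (23 in every fit, and 28 without early replicate 3), with a median of -1.84. *Cyp4s3* had 0.237, 0.132 and 0.153 CPM in late ovaries, against 93.5, 102 and 83.1 CPM in early ovaries (-9.099 ± 0.75, adjusted p = 4.3e-05), and *Cyp6a17* had 5.61, 6.56 and 4.44 CPM in late ovaries, against 39.9, 37.4 and 54.3 CPM in early ovaries (-2.99 ± 0.21), while *Cyp6g1*, known for insecticide resistance, was higher, with 6.87, 5.46 and 3.67 CPM in late ovaries, against 0.678, 0.815 and 1.33 CPM in early ovaries (2.48 ± 0.39). Of 31 glutathione S-transferase genes 7 were lower (10 without early replicate 3), among them *GstD7*, with 0.395, 0.132 and 0.115 CPM in late ovaries, against 470.1, 389 and 155 CPM in early ovaries (-10.81 ± 1.07). Of 19 UDP-glycosyltransferase genes 1 was higher and 9 lower (1 and 10 without early replicate 3), and *Ugt302C1* had 2.84, 4.402 and 4.703 CPM in late ovaries, against 114, 96.4 and 68.03 CPM in early ovaries (-4.52 ± 0.34). Some of these genes were hardly seen in sorted cells: 9 of the P450 calls, 6 of the UDP-glycosyltransferase calls and 1 of the glutathione S-transferase calls had a mean under 1 CPM in sorted somatic and germ cells at both stages, among them *Cyp4s3*. In sorted somatic cells, 11 of 52 P450 genes tested were called lower and 2 higher in late libraries (median -1.21). Of 27 glutathione S-transferase genes 7 were lower and 0 higher (median -2.16). Of 9 UDP-glycosyltransferase genes 2 were lower and 1 higher (median 0.93). Over all genes tested in somatic cells, 11.3% were lower and 11.7% higher.

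Cuticular protein genes had the lowest median of the lists described, with 1 higher and 31 lower of 42 tested (113 listed; 1 and 30 without early replicate 3) and a median of -8.27, a value that depends on fitted values of genes at 0 in late ovaries. Of these calls, 21 were of genes under 1 CPM in sorted cells. Only 42 of the 113 listed genes passed the filter on counts, and those at 0 in late ovaries passed it through the other stages. The share lower and the median therefore depend on that filter. The sum of the 9 larval cuticle markers was lower in every late library, but these are *Lcp* and *Cpr* genes and no separate observation. *Cpr49Ag* was also lower in late sorted somatic cells (adjusted p = 0.00065). In whole ovaries it had 0, 0 and 0.0382 CPM in late ovaries, against 16.2, 15.8 and 16.6 CPM in early ovaries (-9.53 ± 0.62). Tetraspanin genes, which encode membrane proteins with a wide range of partners, had 9 higher and 1 lower of 23 tested (10 and 1 without early replicate 3). *Tsp96F* had 181, 192 and 162 CPM in late ovaries, against 38.7, 40.5 and 55.8 CPM in early ovaries (1.99 ± 0.17), *Tsp68C* had 3.32, 3.35 and 4.44 CPM in late ovaries, against 0 CPM in each library of early ovaries, and *Tsp42Eg* was the lower one, with 0, 0 and 0.0382 CPM in late ovaries, against 17.8, 25.5 and 21.7 CPM in early ovaries. Autophagy genes had 1 higher (5.26%) and 2 lower (10.5%) of 19, against 8.39% and 13.5% of all genes tested.

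Some calls within the lists were lost when 1 library was left out. In every fit that left out 1 library, the calls held for 2 of the Notch, 4 higher and 2 lower of the BMP and Activin, 2 of the EGFR, 3 of the Hippo, 5 higher and 3 lower of the adhesion, 6 of the axon guidance and 2 higher and 1 lower of the actin genes. They held for 2 higher and 2 lower basement membrane genes, 3 higher and 1 lower apoptosis genes, 3 lower piRNA pathway genes, 2 higher germline stem cell genes and 2 lower oxidative phosphorylation genes. Of the metabolic and cuticle families, they held for 1 lower mitochondrial ribosomal protein gene, 1 tRNA synthetase gene, 4 glutathione S-transferase genes, 1 higher and 5 lower UDP-glycosyltransferase genes, 18 lower cuticular protein genes and 6 higher and 1 lower tetraspanin genes.

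Calls of genes that sorted cells hardly express lay mainly among the falls. Of all genes tested, 8.23% had a mean under 1 CPM in sorted somatic and in sorted germ cells at both stages. Among the called genes it was 45 of the 844 higher (5.33%) and 334 of the 1358 lower ones (24.6%), and of these 40 and 288 changed at least 16-fold. When only genes at 1 CPM or more in sorted cells were fitted, 748 were higher and 1076 lower. Genes known by a CG or CR number alone made up 3402 of the genes tested, with 228 higher (6.70%, against 8.39% of all genes tested) and 520 lower (15.3%, against 13.5%).

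Sorted somatic cells shared many of the changes. In them, 2284 of 9931 genes were called between late and early, 1164 higher (11.7%) and 1120 lower (11.3%). Of the whole ovary calls, 808 higher and 996 lower genes were tested there, and 427 and 416 were called in the same direction, whereas 3 and 23 were called in the opposite one. *stumps* averaged 618 ± 158 CPM in late and 0.855 ± 0.874 CPM in early somatic cells (SD, n = 3 each), *ths* 605 ± 195 and 6.101 ± 4.67 CPM, and *Wnt6* 0.174 ± 0.155 and 176 ± 45.5 CPM. In sorted germ cells no gene of 10340 was called by edgeR (0.0%), 678 had an unadjusted p under 0.05, and DESeq2 called 143; the common biological coefficient of variation was 0.84 there, against 0.31 in whole ovaries and 0.52 in somatic cells.

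The change itself was compared between whole ovaries and somatic cells in 1 fit with an interaction term. It differed for 451 of 10929 genes (4.13%), being higher in whole ovaries for 131 (1.2%) and lower for 320 (2.93%). Whole ovaries and sorted cells also differed in strain, driver, dissociation and sorting, which cannot be told apart from the tissue here. Among the genes named above, *Kr-h1* rose in whole ovaries while its log2 fold change in somatic cells was -0.47 ± 0.17, a difference of 1.97 ± 0.32 (adjusted p = 0.00095). *dachs* rose more in whole ovaries (2.95 ± 0.57, adjusted p = 0.0037), and so did *Ama* (2.83 ± 0.498, adjusted p = 0.0017). *egr* fell in both, by more in somatic cells (-4.37 ± 0.32 there, difference 2.71 ± 0.39). *RhoGEF64C* fell in whole ovaries and had 0.13 ± 0.44 in somatic cells (difference -3.68 ± 0.62, adjusted p = 0.0012). Laminin genes *LanA*, *LanB1* and *LanB2* were not called in whole ovaries and were higher in late somatic cells (1.59 ± 0.22, 1.89 ± 0.21 and 1.52 ± 0.19), with differences of -1.65 ± 0.32, -1.62 ± 0.28 and -1.64 ± 0.24, all called. The fat body gene *apolpp*, which encodes the lipid carrier of the haemolymph, had 204, 210.3 and 104 CPM in late ovaries, against 15830.4, 14673 and 17120.5 CPM in early ovaries (-6.52 ± 0.54) and differed by -8.73 ± 0.67. Its level in somatic cells was low at both stages, since all 9 fat body markers together summed to at most 9.76 CPM in any sorted somatic library. None of the 5 fat body markers tested in somatic cells was called there, so a rise of *apolpp* in them is not shown.

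**Figure D5:**
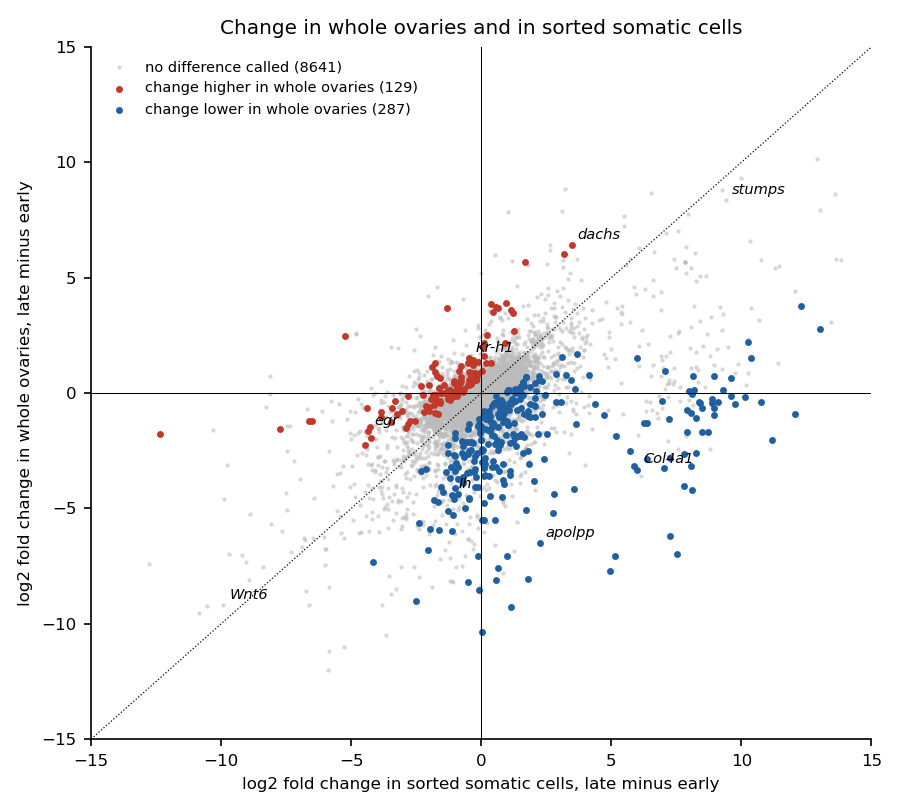
Log2 fold change, late minus early, in whole ovaries (vertical) against that in sorted somatic cells (horizontal) for 9057 genes tested in both; the change was higher in whole ovaries for 129 (red), lower for 287 (blue) and not called different for 8641 (grey), and the dotted line marks equal change. *Col4a1* and *apolpp* lie in the lower right, where whole ovaries fell and somatic cells had positive values, and *stumps* and *Wnt6* lie near the line. The somatic value of *apolpp* comes from a low level and was not called, since all 9 fat body markers summed to at most 9.76 CPM in sorted somatic cells and none was called there.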

How the data were processed

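Whole ovaries, sorted somatic cells and sorted germ cells of larval *D. melanogaster* were profiled by RNA-seq at 3 stages, 72, 96 and 120 h AEL, with 3 replicate libraries per stage and tissue. The authors trimmed reads with bcl2fastq 2.2, aligned them with STAR 2.7.6a to the FlyBase genome and deposited expected counts per gene from RSEM 1.3.3, summed over lanes and runs and not normalized. RSEM shares multi-mapping reads out between genes, so between 15.9 and 19.8% of the values of a whole ovary library were not whole.

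The rounded counts were analysed in R 4.3.3 with edgeR 4.0.16 and limma 3.58.1, using filterByExpr (minimum count 10, total 15), TMM scaling and the robust quasi-likelihood test on the 9 whole ovary libraries, with the contrast late minus early and a Benjamini-Hochberg adjusted p under 0.01. The mid libraries add to the estimate of spread. Sorted cells were fitted in the same way, and the difference in the change in 1 fit of whole ovaries and somatic cells. CPM values use the TMM-scaled library size. Errors of log2 fold changes are approximate standard errors, the absolute fitted log2 fold change divided by the square root of the test's F statistic. They can be too small for genes near 0 in a stage, such as *Wnt6*, with 9 counts over the late libraries. Folds given as at least use a floor of 3 counts over the group. Floors cover counting error only. With 3 libraries against 3, the smallest two-sided p of an exact permutation test is 0.1.

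Symbols and positions came from Ensembl release 115 (assembly BDGP6.54) for 16206 of 16257 genes, symbols of 16 more came from the study's supplementary tables, and 35 had none. There were 6 list symbols without a match, which were left out. Named genes were the 10 higher and 10 lower with the smallest p, the 5 of each with the largest change among genes with a mean of at least 10 CPM in the higher stage, and, per list, up to 4 called members with the largest change plus members that the pathway description needs. The members, lists and tests were chosen with earlier results of these data known. Alternatives were DESeq2 1.42.0, limma voom, other scalings and filters, thinned counts, a replicate block, fewer libraries, and a fit limited to genes present in sorted cells, the last chosen after seeing the data. The tests were tried on simulated data first. Sequences were not analysed here.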

Additional observations from a re-analysis of the deposited data

Results flagged for a closer look

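The change between late and early was compared between whole ovaries and sorted somatic cells by an interaction term in edgeR. It was higher in whole ovaries for 131 genes and lower for 320, and these results were looked at again because 2 tissues differed under the same contrast. Of the genes named by p or by fold, 5 were among them.

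*CG6357* rose in both, with a log2 fold change of 5.66 ± 0.23 in whole ovaries and 1.67 ± 0.404 in somatic cells, a difference of 3.9998 ± 0.49 (adjusted p = 0.00010). It averaged 32.6 ± 4.801 CPM in late and 0.632 ± 0.108 CPM in early whole ovaries, and 16.7 ± 2.15 CPM in late and 5.23 ± 2.45 CPM in early somatic cells (SD, n = 3 each). The channel gene *Ih* fell by more in whole ovaries (-4.401 ± 0.14) than in somatic cells (-1.11 ± 0.14), a difference of -3.29 ± 0.19 (adjusted p = 6.2e-08). *SP1173* fell in both, with -7.31 ± 0.26 in whole ovaries and -4.15 ± 0.35 in somatic cells (difference -3.16 ± 0.43, adjusted p = 0.00022). For *alpha-Est9* the difference was -1.05 ± 0.22 (adjusted p = 0.0062), with -3.37 ± 0.14 in whole ovaries and -2.31 ± 0.18 in somatic cells. *Eig71Ec* had a fitted difference of 18.59, which depends on the prior count and is no bound. Its early whole ovary libraries and its late somatic libraries were all at 0 CPM, and early somatic libraries had 0.668, 1.12 and 0 CPM.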

How the results depend on the processing

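With other settings, no gene named by p or fold changed direction. List medians changed sign in 34 of 982 checks, in 11 of the 52 lists: the fat body median was -2.44 among genes at 1 CPM or more in sorted cells, against 1.998 over all, that of ecdysone uptake genes was -0.07 with DESeq2 and -0.08 without a filter, against 0.53, and without early replicate 3 the basement membrane, JAK/STAT and proteasome medians were 0.09, 0.09 and -0.22, against -0.07, -0.12 and 0.02. DESeq2 called 1390 higher genes in whole ovaries, and a fit with a replicate block called 1585 genes, 538 of them higher. Deviations of late and early libraries with the same replicate number correlated at -0.24, 0.10 and -0.32. Those with different numbers correlated at between -0.29 and 0.36. Deviations from a mean of 3 libraries constrain each other, so these values cannot show whether the numbers pair the samples. RLE and upper quartile scaling gave 2223 and 2182 calls, no filter 2077, counts thinned to the shallowest library 2075, and early and late libraries alone 1733.

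Leaving out 1 library gave between 1233 and 3280 calls in whole ovaries (446 to 1416 higher, 787 to 1864 lower) and between 1474 and 2283 in somatic cells (757 to 1102 higher, 687 to 1181 lower). For the difference between them it gave between 281 and 491 (54 to 122 higher, 214 to 370 lower). In germ cells DESeq2 called 143 genes (72 higher, 71 lower), and the fit without a filter and the one with the block each called 1, which was lower. For the difference, DESeq2 called 1157 genes (290 higher, 867 lower) and the block 289, of which 61 were higher.

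Of the genes named by p or fold, *Gnmt* and *ng2* lost their calls with limma voom (adjusted p = 0.029 and 0.11), and *ng2* also without early replicate 2 (0.012), late replicate 1 (0.015), late replicate 2 (0.016), late replicate 3 (0.017) or mid replicate 3 (0.010). The other checks of these genes, 555 in all, kept direction and call. Over the lists, 336 counts of called members moved by more than 1.5 times and 1628 did not. The shallowest library set the limit for rare transcripts, since 3 counts in late replicate 1 correspond to 0.258 CPM.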

Other observations

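The following genes were chosen after their values were seen, as large changes outside the lists, and none had stages that overlapped. Matrix genes fell beside collagen IV: *prc*, which encodes the collagen-like protein pericardin, had 0.869, 0.572 and 0.688 CPM in late ovaries, against 3488, 3578 and 2006 CPM in early ovaries (-12.08 ± 0.85, adjusted p = 2.0e-05 by edgeR), and *Tig*, which encodes the integrin ligand tiggrin, had 12.004, 10.96 and 8.41 CPM in late ovaries, against 3862, 3401 and 1919.96 CPM in early ovaries (-8.197 ± 0.59). In somatic cells *Tig* had a log2 fold change of -0.49 ± 1.69, and the change differed by -7.83 ± 1.503 (adjusted p = 0.0038). The trehalose synthesis gene *Tps1*, known from fat body, had 2.53, 4.84 and 3.52 CPM in late ovaries, against 914, 765 and 450.1 CPM in early ovaries (-7.59 ± 0.56), and its change differed from that in somatic cells by -8.205 ± 0.77 (adjusted p = 1.4e-05). The fat body and haemocyte marker sums were lower in late ovaries too. Of the 9 fat body markers 4 were called higher and 3 lower, and of the 9 haemocyte markers 1 and 4. The part of these tissues in the falls was not tested.

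Regulatory genes also stood out. The sex determination gene *fru* had 21.6, 20.5 and 17.6 CPM in late ovaries, against 282, 303 and 420.4 CPM in early ovaries (-4.08 ± 0.198, adjusted p = 3.8e-06 by edgeR). *esg*, a Snail-family factor known from stem cells of gut and testis, had 3.47, 3.79 and 2.75 CPM in late ovaries, against 45.4, 62.4 and 102 CPM in early ovaries (-4.396 ± 0.31), and the receptor tyrosine kinase gene *sev* had 8.69, 9.69 and 4.13 CPM in late ovaries, against 377, 264 and 454 CPM in early ovaries (-5.61 ± 0.37). Each of these was lower in every late library. Rising genes included the aquaporin gene *Drip*, with 67.05, 78.4 and 79.3 CPM in late ovaries, against 1.67, 1.06 and 2.17 CPM in early ovaries (5.498 ± 0.36), and the Odd-skipped family genes *odd*, with 48.01, 55.3 and 48.9 CPM in late ovaries, against 3.49, 7.29 and 4.62 CPM in early ovaries (3.304 ± 0.26), and *drm*, with 713, 867 and 787 CPM in late ovaries, against 114.7, 113 and 93.01 CPM in early ovaries (2.89 ± 0.19).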
